A study of Saccharomyces cerevisiae with 21 samples.

Results

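The histone genes of budding yeast, Saccharomyces cerevisiae, were followed across 7 groups of arrays. They are HTA1 and HTA2 (histone H2A), HTB1 and HTB2 (H2B), HHT1 and HHT2 (H3), HHF1 and HHF2 (H4), HTZ1 (the H2A variant H2A.Z) and HHO1 (the linker histone H1). The genes were chosen by name, and a gene was taken as measured where a probe set carried its symbol. That held for 9 of the 10 genes, among the 5449 yeast genes measured. HHF2 had no probe set named for it. HHF1 was read by a set of the type _s_at, which may bind more than 1 related transcript, so signal from HHF1 and HHF2 cannot be told apart. HTA2 (YBL003C) had 2 sets. The brighter, an _s_at set that may also bind HTA1, was used by rule, and the dimmer _at set is given beside it as the HTA2 own set, an alternative chosen after its values were seen. The other members, HTA1, HTB1, HTB2, HHT1, HHT2, HTZ1 and HHO1, had 1 _at set each.

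The study asked how heat, the drug ISP1 and the fatty acid myristate alter gene expression by way of sphingolipids. ISP1, or myriocin, inhibits serine palmitoyltransferase, the enzyme of the first step of sphingolipid synthesis, and myristate is a saturated fatty acid that can enter ceramide. The groups, of 3 arrays each, were YPD heat + ISP1, YPD heat, YPD ISP1 and YPD control, all in rich YPD medium, and SC myristate + ISP1, SC myristate and SC control, all in synthetic complete (SC) medium. Heat, ISP1, both together and myristate alone lasted 45 min, and no time is stated for SC myristate + ISP1. The labels state no strain, genotype, temperature, dose or vehicle. For 2 of the SC myristate + ISP1 arrays the description numbers the drug differently from the title, and the title was followed. Nothing in the labels says that the arrays of a group came from separate cultures, so the tests measure the spread between these arrays, which may be technical.

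Nucleosomes hold DNA wound on a core of H2A, H2B, H3 and H4, and yeast carries a pair of genes for each. The core genes sit in divergent pairs, which in the gene table are HTB1 with HTA1 (YDR224C, YDR225W), HTA2 with HTB2 (YBL003C, YBL002W), HHF1 with HHT1 (YBR009C, YBR010W) and HHT2 with HHF2 (YNL031C, YNL030W). Their mRNAs accumulate in S phase, when DNA is copied. Outside S phase the HIR proteins repress most of these pairs, and Spt10 and Spt21 activate them. The exchange complex SWR1 places the HTZ1 product into nucleosomes, many of them at promoters, and HHO1 encodes a protein that binds linker DNA between nucleosomes.

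Values are log2 signal per probe set, so a difference of 1 is a 2-fold difference. Levels of different genes were not compared as amounts of RNA. In YPD heat cells the heat shock gene SSA4 was higher than in YPD control by 4.67, the long-chain base exporter gene RSB1 rose with ISP1 by 1.43, and POX1, of fatty acid oxidation, rose with myristate by 3.28. Replicate arrays correlated at 0.993 to 0.998, and no pair held over 0.404% identical values. The actin signal at the 3′ end minus that at the 5′ end, a sign of RNA quality, was 0.44 ± 0.01 in YPD heat + ISP1, 0.51 ± 0.03 in YPD heat, 0.42 ± 0.05 in YPD ISP1 and 0.38 ± 0.02 in YPD control (SD, n = 3 each). It was 0.17 ± 0.02 in SC myristate + ISP1, 0.17 ± 0.01 in SC myristate and 0.13 ± 0.01 in SC control. Its part in the results was not tested. In a culture, fewer cells that express a gene and less RNA per cell cannot be told apart.

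HTB2 varied most of the members. Its group means spanned 1.47 log2 units, a 2.77-fold range. The HTA2 own set spanned 1.18, HTZ1 spanned 1.06, HHO1 spanned 1.02 and HHT1 spanned 0.86. HHF1 spanned 0.38 and HHT2 spanned only 0.32. The copies of one histone thus differed in how far they ranged. In order of level, HTB2 was lowest in YPD heat + ISP1, then came YPD heat, SC myristate and SC myristate + ISP1, whose arrays overlapped from one to the next, then YPD ISP1, and last YPD control and SC control, whose arrays overlapped. HHT1 fell into a low block of YPD heat + ISP1, YPD heat, SC myristate and SC myristate + ISP1, and a high block of YPD ISP1, SC control and YPD control. Arrays overlapped between neighbours within each block and not between the blocks. For HHT2 every group overlapped its neighbour in the order of levels.

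**Figure D1:**
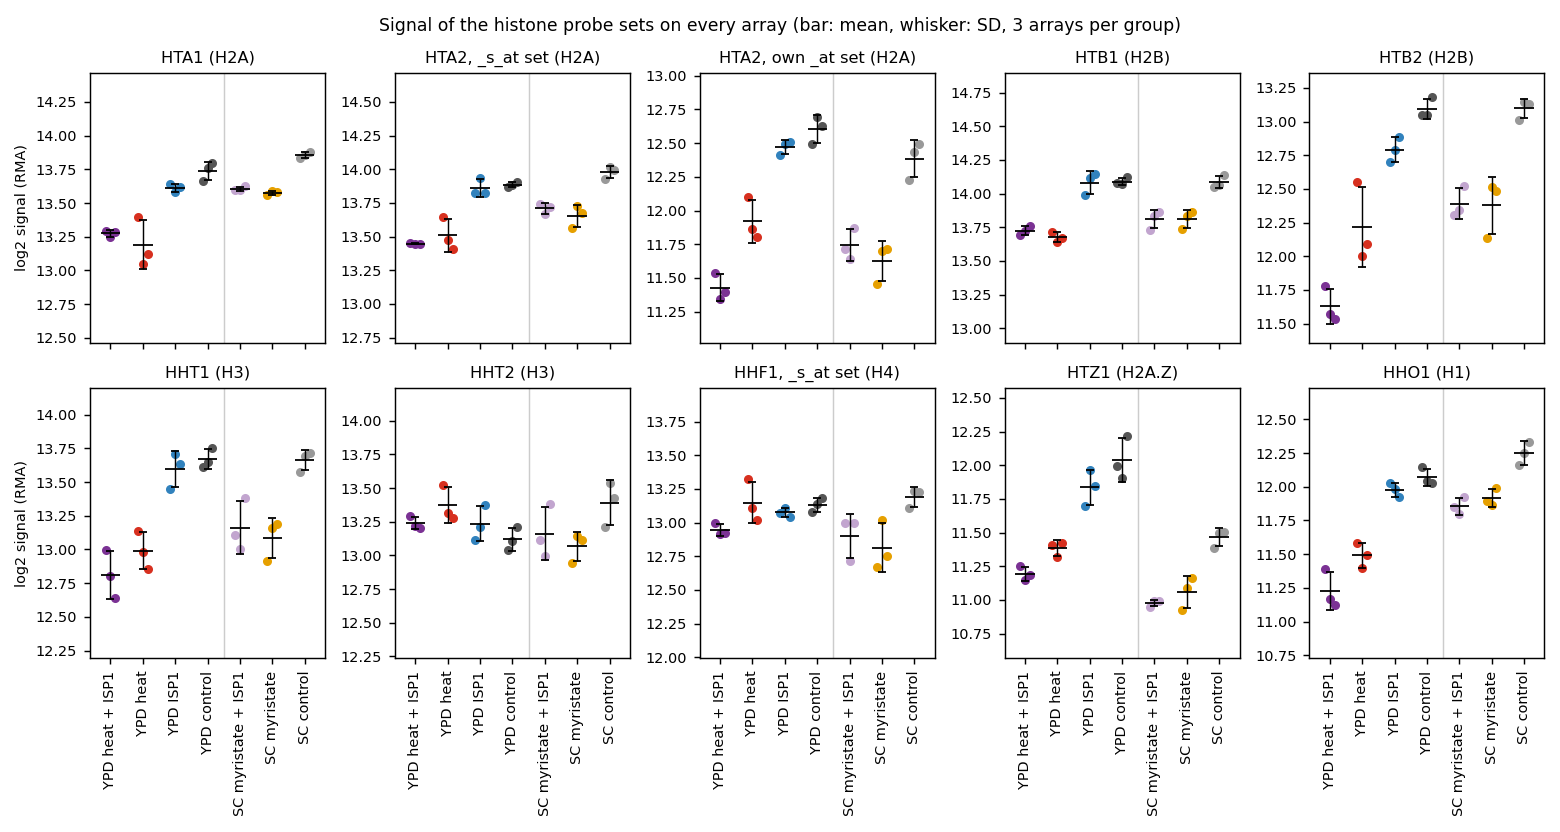
Log2 signal of each histone probe set on every array (points) by group, with the mean (bar) and SD (whisker) of 3 arrays; the vertical line parts YPD groups from SC groups and every panel spans 2 log2 units. HTB2 spans 1.47 between its lowest and highest group mean, and HHT2 spans 0.32.

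Heat lowered 7 of the 9 measured histone genes and raised 1. A gene was called where its adjusted p in limma, Benjamini-Hochberg over all genes, was under 0.05. Over all genes 40.9% were called lower and 39.8% higher in this comparison, so a call alone says little here. The arrays of the groups did not overlap for 8 of the 9 genes, and for 83.1% of all genes. The median change of the 7 measured core genes was −0.41, against −0.00 over all genes, and 30.5% of genes had a change more negative than that. Quantile normalization over the yeast probe sets gave a core median of −0.30.

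HTB2, the second H2B gene, fell most. It read 12.55, 12.003 and 12.09 in YPD heat, against 13.05, 13.05 and 13.18 in YPD control. The groups did not overlap, and the first heated array was the highest of the heated ones. The fall was 0.88 ± 0.12 on the log2 scale (SE, adjusted p = 2.51e-06, limma), or 1.84-fold, and 16.6% of genes fell further. HTB1, the other H2B gene, read 13.72, 13.64 and 13.67 in YPD heat, against 14.08, 14.07 and 14.12 in YPD control. All heated arrays thus lay below all control arrays for HTB1, and the fall was 0.41 ± 0.05 on the log2 scale (adjusted p = 7.67e-07, limma).

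The H2A genes fell as well. HTA1 had 13.39, 13.05 and 13.12 in YPD heat, against 13.66, 13.76 and 13.79 in YPD control, a change of −0.55 ± 0.06 (adjusted p = 2.76e-07, limma). The HTA2 own set read 12.10, 11.86 and 11.80 in YPD heat, against 12.49, 12.69 and 12.63 in YPD control, and fell by 0.69 ± 0.09 (adjusted p = 2.28e-06, limma). The shared HTA2 set changed by −0.37 ± 0.06 (adjusted p = 1.11e-05, limma). In each of these the first heated array was the highest of its group, and in none did the groups overlap.

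Of the H3 genes 1 fell and 1 rose. HHT1 read 13.14, 12.98 and 12.86 in YPD heat, against 13.61, 13.65 and 13.75 in YPD control, and fell by 0.68 ± 0.11 (adjusted p = 1.33e-05, limma). HHT2 read 13.52, 13.31 and 13.28 in YPD heat, against 13.04, 13.10 and 13.21 in YPD control. All heated arrays lay above all control arrays for HHT2, and the change was 0.25 ± 0.10 (adjusted p = 0.0296, limma). That call was lost without YPD heat replicate 1 (0.18, adjusted p = 0.147), YPD control replicate 1 (0.21, adjusted p = 0.0979) or YPD control replicate 2 (0.25, adjusted p = 0.0662). HHF1, the H4 set, had 13.32, 13.10 and 13.02 in YPD heat, against 13.08, 13.14 and 13.18 in YPD control. Its groups overlapped and its change of 0.02 had a 95% interval of −0.17 to 0.21 (adjusted p = 0.873, limma).

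The variant and linker genes were lower on every heated array. HTZ1 read 11.41, 11.32 and 11.43 in YPD heat, against 11.99, 11.90 and 12.22 in YPD control, a change of −0.65 ± 0.08 (adjusted p = 4.83e-07, limma). HHO1 read 11.58, 11.40 and 11.49 in YPD heat, against 12.14, 12.04 and 12.03 in YPD control, a change of −0.58 ± 0.07 (adjusted p = 4.58e-07, limma). CSE4 (YKL049C), which encodes the H3 variant of centromeres and is not a member, changed by −0.37 ± 0.10 (adjusted p = 0.00279, limma). Beside these heat results, the 3′ minus 5′ difference of the control gene SRB4 was 3.01 ± 0.18 in YPD heat and 2.65 ± 0.11 in YPD control. That of SPT15 was 2.30 ± 0.03 in YPD heat and 2.00 ± 0.18 in YPD control (SD, n = 3 each), and the part of these in the fall was not tested.

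**Figure D2:**
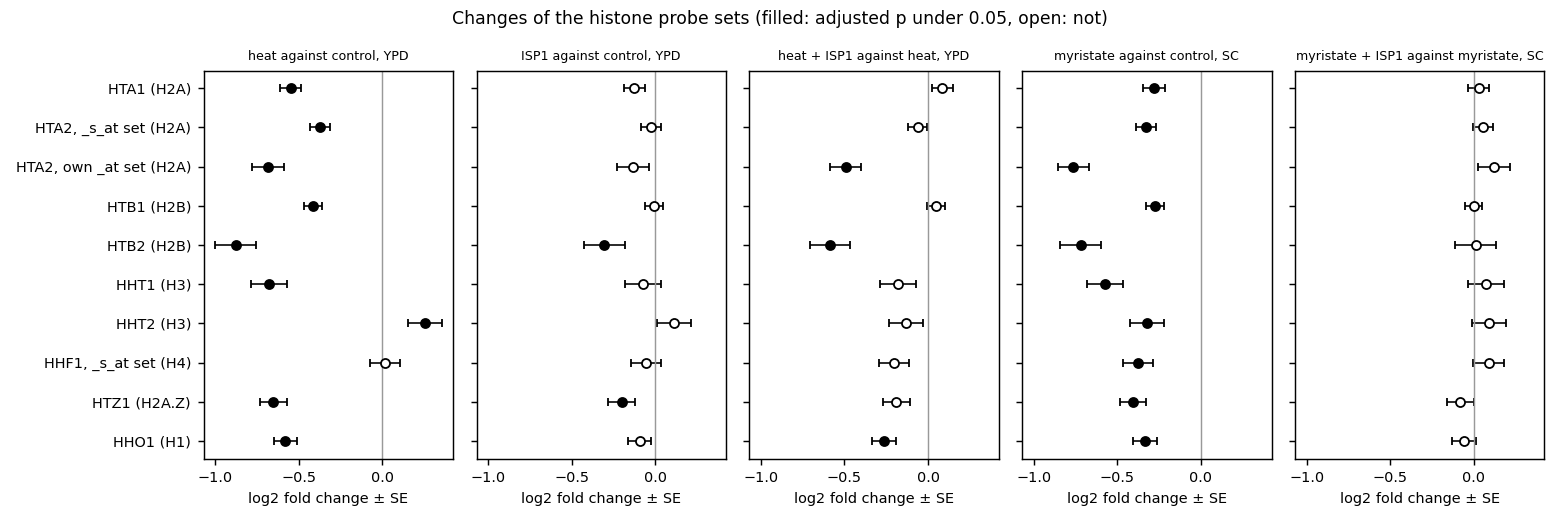
Log2 fold change with SE of each histone probe set in 5 comparisons, each named at the top; filled points passed an adjusted p of 0.05 in limma and open points did not. Heat and myristate each put most points left of 0, while HHT2 stands at 0.25 with heat and at −0.32 with myristate.

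ISP1 alone changed few histone genes. Of the 9, 2 were called lower and 0 higher, where 33.2% of all genes were called lower and 27.9% higher, and the core median was −0.06, against −0.04 over all genes. HTB2 had 12.70, 12.79 and 12.88 in YPD ISP1, against 13.05, 13.05 and 13.18 in YPD control, with no overlap and a change of −0.30 ± 0.12 (adjusted p = 0.0391, limma). HTZ1 had 11.70, 11.96 and 11.85 in YPD ISP1, against 11.99, 11.90 and 12.22 in YPD control, and its groups overlapped (−0.20 ± 0.08, adjusted p = 0.0376, limma). Both calls are weak. The HTB2 call was lost without any 1 of 5 of the 6 arrays (adjusted p of 0.0564 to 0.124), all but YPD ISP1 replicate 3, and after median centring (0.0557). The HTZ1 call was lost without YPD control replicate 3 (−0.11, adjusted p = 0.241), YPD ISP1 replicate 1 (−0.13, adjusted p = 0.19) or YPD ISP1 replicate 3 (−0.21, adjusted p = 0.0665), in the fit of the compared arrays only (0.119), with median centring (0.0514) and with array weights (0.175). HTA1 lay below control without overlap but was not called (−0.12 ± 0.06, adjusted p = 0.104, limma). It was called with array weights (−0.15, adjusted p = 0.0168). HHO1 also lay below control without overlap and was not called (−0.09 ± 0.07, adjusted p = 0.265, limma). HTB1 changed least, by −0.01 with a 95% interval of −0.12 to 0.10, and for HHT1 the interval was −0.30 to 0.16. For the HTA2 own set the change was −0.13 ± 0.09 (adjusted p = 0.236, limma). CSE4 was called lower (−0.28 ± 0.10, adjusted p = 0.0248, limma).

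In heated cells ISP1 lowered HTB2 further. It read 11.78, 11.57 and 11.54 in YPD heat + ISP1, against 12.55, 12.003 and 12.09 in YPD heat, without overlap. The change was −0.59 ± 0.12 (adjusted p = 0.00132, limma), and 2.68% of genes had a more negative one. HHO1 had 11.39, 11.17 and 11.13 in YPD heat + ISP1, against 11.58, 11.40 and 11.49 in YPD heat, also without overlap (−0.26 ± 0.07, adjusted p = 0.00819, limma). With only the arrays compared in the fit HHO1 did not pass (adjusted p = 0.0677). These were the 2 members called lower of 9, with 0 higher, where 16.3% of all genes were called lower and 16.5% higher. In the HTA2 own set the values were 11.54, 11.34 and 11.40 in YPD heat + ISP1, against 12.10, 11.86 and 11.80 in YPD heat, so every array with the drug lay below every array without it (−0.49 ± 0.09, adjusted p = 0.000645, limma). HTZ1 had 11.25, 11.15 and 11.18 in YPD heat + ISP1, against 11.41, 11.32 and 11.43 in YPD heat, lower without overlap but not called (−0.19 ± 0.08, adjusted p = 0.0767, limma). It was called with quantile normalization (−0.24, adjusted p = 0.0203), median centring (−0.21, adjusted p = 0.037) and array weights (−0.24, adjusted p = 0.00243). HTA1 went the other way without passing in the fit over all arrays (0.09 ± 0.06, adjusted p = 0.334, limma). It passed without YPD heat replicate 1 (0.19, adjusted p = 0.00646) and with array weights (0.14, adjusted p = 0.00495).

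Heat in the presence of ISP1 lowered the same 7 genes as heat alone. HTA1, HTA2, HTB1, HTB2, HHT1, HTZ1 and HHO1 were lower in YPD heat + ISP1 than in YPD ISP1, where 37.2% of all genes were called lower. HTB2 changed by −1.16 ± 0.12, HHT1 by −0.79 ± 0.11, HHO1 by −0.75 ± 0.07 and HTZ1 by −0.64 ± 0.08. HTB1, HTA1 and the shared HTA2 set changed by −0.36, −0.34 and −0.41, and the HTA2 own set by −1.05 ± 0.09 (adjusted p = 1.02e-08, limma). HHT2 read 13.29, 13.22 and 13.21 in YPD heat + ISP1, against 13.12, 13.21 and 13.37 in YPD ISP1, with groups that overlapped (0.01 ± 0.10, adjusted p = 0.964, limma). Against YPD control, YPD heat + ISP1 was again lower in those 7 genes, where 40.5% of all genes were, and HTB2 fell by 1.46 ± 0.12 (adjusted p = 1.97e-09, limma), or 2.76-fold. The HTA2 own set fell by 1.18 ± 0.09 there (adjusted p = 1.12e-09, limma). HHF1 had 13.00, 12.92 and 12.92 in YPD heat + ISP1, against 13.08, 13.14 and 13.18 in YPD control, below without overlap but not called (−0.19 ± 0.09, adjusted p = 0.0659, limma). It was called in the fit of the compared arrays only (adjusted p = 0.0155), with an intensity trend and robust prior (0.0481) and with array weights (0.0233). Several of the YPD comparisons share arrays, so their values are not independent of each other.

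The interaction asks whether ISP1 altered the effect of heat. It was called for 0 of the 9 genes in limma, where 40.9% of all genes were called in either direction. At an unadjusted p under 0.05 only HTA1 passed (0.21 ± 0.09, unadjusted p = 0.0335, adjusted p = 0.0741). HTA1 was called without YPD heat replicate 1 (0.31, adjusted p = 0.00102), with array weights, with quantile normalization and with an intensity trend, and HHO1 was called without YPD heat + ISP1 replicate 1 (−0.25, adjusted p = 0.033) and with array weights. For HTB2 the interaction was −0.28 with a 95% interval of −0.65 to 0.08. An interaction of −0.36 ± 0.13 was found for the HTA2 own set (adjusted p = 0.039, limma). On the log2 scale, heat and ISP1 together lowered it by more than the sum of both alone. This set was chosen after its values were seen, and its interaction was not refitted with an array left out. Its YPD heat arrays read 12.10, 11.86 and 11.80, and dependence of the call on the first of them was not tested.

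The copies of a histone gene were then compared within each array, which sets each copy against its partner under the same scaling. The sets of a pair lay at unlike signal. YPD control means were 14.09 for HTB1 and 13.09 for HTB2, and 13.74 for HTA1 and 12.61 for the HTA2 own set. They were 13.67 for HHT1 and 13.12 for HHT2. Brighter sets lie nearer the top of the scale (array maxima 14.94 to 15.07). Whether this altered the size of their changes was not tested. The difference between the copies was tested over the 12 YPD arrays by exact permutation, two-sided, with the other treatment as stratum. There were 400 relabelings and 6 tests, and the smallest p they can give is 0.005. With heat, HTB2 fell relative to HTB1 by 0.63 (exact p = 0.005, adjusted 0.0075), and with ISP1 by 0.46 (exact p = 0.005, adjusted 0.0075). Relative to the YPD control mean the HTB2 minus HTB1 difference was −0.92, −1.15 and −1.23 in YPD heat + ISP1, −0.17, −0.64 and −0.58 in YPD heat, −0.29, −0.33 and −0.27 in YPD ISP1, and −0.03, −0.03 and 0.06 in YPD control. All 9 treated arrays lay below the 3 control arrays.

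The H3 pair parted in the other direction. HHT2 rose relative to HHT1 with heat by 0.86 (exact p = 0.005, adjusted 0.0075). Relative to the control mean, HHT2 minus HHT1 was 0.85, 0.97 and 1.12 in YPD heat + ISP1, 0.94, 0.88 and 0.97 in YPD heat, 0.22, 0.05 and 0.29 in YPD ISP1, and −0.02, 0.01 and 0.01 in YPD control. All 6 heated arrays stood above 0.8 and no unheated one above 0.3. With ISP1 the shift was 0.12 and did not pass (exact p = 0.085, adjusted 0.085). With heat the HTA2 own set fell relative to HTA1 by 0.42 (exact p = 0.005, adjusted 0.0075). With ISP1 it fell by 0.29, which missed the threshold after adjustment (exact p = 0.045, adjusted 0.054). Most of that gap was in cells given both treatments: −0.62, −0.77 and −0.75 in YPD heat + ISP1, −0.16, −0.06 and −0.19 in YPD heat, −0.10, 0.05 and 0.02 in YPD ISP1, and −0.04, 0.07 and −0.03 in YPD control. With the mean of both HTA2 sets in place of the own set the heat shift was −0.19 (adjusted 0.085). For H4 no such comparison could be made.

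**Figure D3:**
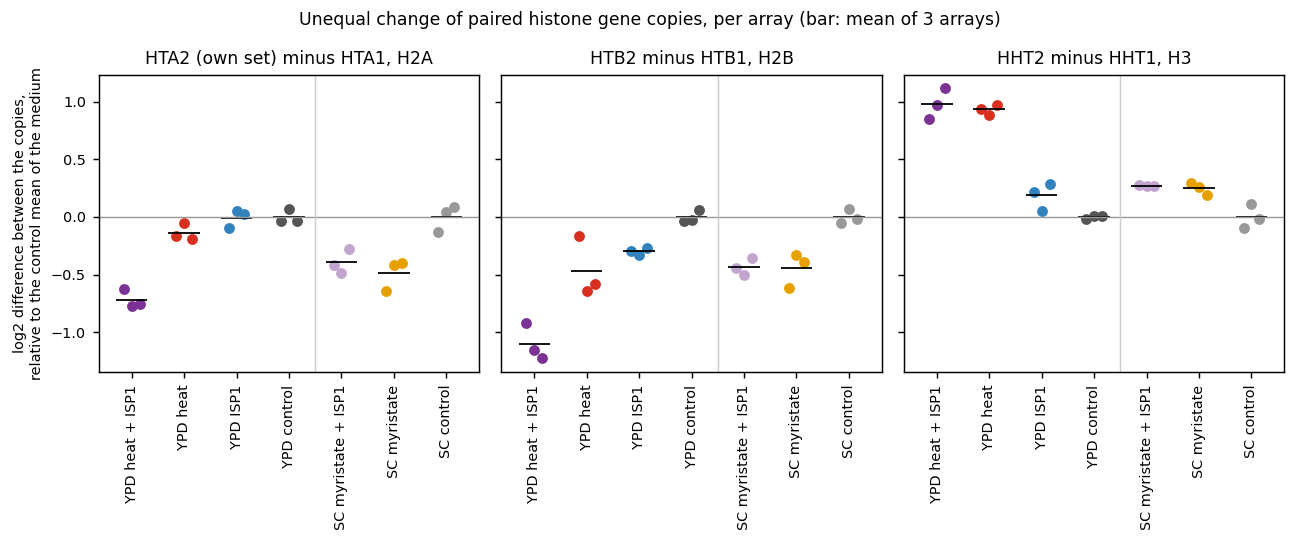
Log2 difference between the copies of a histone gene on each array, set to 0 at the control mean of its medium (points: arrays, bars: means of 3 arrays). HHT2 minus HHT1 stands between 0.85 and 1.12 on the heated arrays, and HTB2 minus HTB1 is lowest, −0.92 to −1.23, in YPD heat + ISP1.

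HTB2 and HTA2 share a divergent promoter region, as do HHT2 and HHF2. Over the 21 arrays, after removal of group means, HTB2 and the HTA2 own set correlated at 0.84, HHF1 and HHT1 at 0.67, and HTA1 and HTB1 at 0.29. Values were about as high across pairs: the HTA2 own set correlated at 0.84 with HHT2 and 0.83 with HHT1, and HHT1 and HHT2 correlated at 0.81. With group means kept, HHT2 correlated with HHF1 at 0.70 and with the other members at −0.04 to 0.26. HHF1 correlated as highly with the HTA2 own set (0.70). After removal of group means HHT2 correlated with HHF1 at 0.69 and with the other members at 0.35 to 0.84. All these points share arrays and their scaling, and the correlations are given as a description.

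Myristate in SC medium lowered all 9 measured histone genes, where 25.7% of all genes were called lower. In all 9 the myristate arrays lay wholly below the control arrays, as they did for 32.0% of all genes. The core median was −0.33, against −0.01 over all genes, and 15.8% of genes fell below that median. HTB2 read 12.14, 12.51 and 12.49 in SC myristate, against 13.01, 13.15 and 13.13 in SC control, and again fell most (−0.72 ± 0.12, adjusted p = 8.22e-05, limma). HHT1 had 12.92, 13.16 and 13.19 in SC myristate, against 13.58, 13.69 and 13.72 in SC control (−0.57 ± 0.11, adjusted p = 0.000231, limma). No arrays of the compared groups overlapped for either gene. As large was the fall of the HTA2 own set (−0.76 ± 0.09, adjusted p = 2.66e-06, limma). HTZ1 changed by −0.41 ± 0.08, HHF1 by −0.38 ± 0.09, HHO1 by −0.33 ± 0.07, HTA1 by −0.28 ± 0.06 and HTB1 by −0.27 ± 0.05. HHT2 was low here: 12.94, 13.15 and 13.11 in SC myristate, against 13.21, 13.53 and 13.43 in SC control (−0.32 ± 0.10, adjusted p = 0.0129, limma). That call was lost without SC control replicate 2 (adjusted p = 0.0748) or SC myristate replicate 1 (0.0672). Relative to SC control, the difference HHT2 minus HHT1 moved by 0.25 ± 0.07, HTB2 minus HTB1 by −0.44 ± 0.09 and the HTA2 own set minus HTA1 by −0.48 ± 0.10 (SE), without overlap. An exact test of 3 arrays against 3 cannot give a p below 0.1, so none was made. CSE4 changed by −0.24 ± 0.10 and did not pass (adjusted p = 0.064, limma).

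Adding ISP1 to myristate moved no histone gene past the threshold. In limma 0 of the 9 genes were called, where 0.0184% of all genes were, which is 1 gene, and none of the 9 had an unadjusted p under 0.05. The lowest unadjusted p among them was that of HTZ1, 0.324, at −0.08 ± 0.08. RSB1, which rose with ISP1 in YPD, was not called here either (0.25 ± 0.13, adjusted p = 0.86, limma). Whether the drug acted in these cells was not tested. HTB2 read 12.31, 12.35 and 12.52 in SC myristate + ISP1, against 12.14, 12.51 and 12.49 in SC myristate. Its change of 0.01 had a 95% interval of −0.24 to 0.27, and for HHT1 the interval was −0.15 to 0.30. Against SC control, SC myristate + ISP1 was lower in 8 of the 9 genes, where 26.7% of all genes were called lower. HTB2 changed by −0.71 ± 0.12, HHT1 by −0.50 ± 0.11, HTZ1 by −0.49 ± 0.08 and HHO1 by −0.39 ± 0.07, and the HTA2 own set by −0.64 ± 0.09. HHT2 was not called, at −0.23 ± 0.10 (adjusted p = 0.0628, limma), but passed without SC control replicate 1 (−0.32, adjusted p = 0.0167) or SC myristate + ISP1 replicate 3 (−0.34, adjusted p = 0.00896), with array weights, with quantile normalization and with an intensity trend. The HHF1 call (−0.29 ± 0.09, adjusted p = 0.0113, limma) was lost without SC myristate + ISP1 replicate 2 (0.0842).

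Between the media, HTZ1 was the histone gene that differed most. It had 11.39, 11.50 and 11.51 in SC control, against 11.99, 11.90 and 12.22 in YPD control, without overlap (−0.57 ± 0.08, adjusted p = 9.25e-06, limma). HTZ1 was the only member called lower, where 40.9% of all genes were called lower and 18.9% higher. All genes shifted by a median of −0.13 in this comparison, and by −0.07 after median centring, so changes here are read against that shift. HHT2 (0.27 ± 0.10, adjusted p = 0.0289, limma) and HHO1 (0.18 ± 0.07, adjusted p = 0.0365, limma) were called higher. The HHT2 call was lost without YPD control replicate 1 or 2 or SC control replicate 2 or 3 (0.20 to 0.26, adjusted p of 0.068 to 0.134). The HHO1 call was lost without YPD control replicate 2 or 3 or SC control replicate 2 or 3 (0.14 to 0.18, adjusted p of 0.0727 to 0.146). HHO1 was also lost with quantile normalization (0.107). HTA1 was called higher with median centring (0.18, adjusted p = 0.03) and with array weights (0.11, adjusted p = 0.0367), as was the shared HTA2 set (0.16, adjusted p = 0.0238, and 0.11, adjusted p = 0.0468). The HTA2 own set stood on the other side of 0 and was not called (−0.22 ± 0.09, adjusted p = 0.0535, limma), so no direction is given for HTA2. HTB2 differed by 0.00 with a 95% interval of −0.25 to 0.26. The share of higher calls among all calls was 31.6% as deposited, 39.2% with quantile normalization and 41.0% with median centring. RNA quality values also differed between the media. The 3′ minus 5′ difference of SRB4 was 1.85 ± 0.10 in SC control and 2.65 ± 0.11 in YPD control. That of actin was 0.13 ± 0.01 and 0.38 ± 0.02, and that of SPT15 was 2.01 ± 0.11 and 2.00 ± 0.18 (SD, n = 3 each). The part of these in the differences between media was not tested.

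Heat and myristate lowered most of the same genes, and HHT2 differed between them. The heat change in YPD minus the myristate change in SC, a comparison chosen after the values were seen, was 0.58 ± 0.14 for HHT2 (adjusted p = 0.00192, limma) and 0.39 ± 0.13 for HHF1 (adjusted p = 0.0123, limma). It was −0.27 ± 0.09 for HTA1 (adjusted p = 0.0151, limma) and −0.24 ± 0.10 for HHO1 (adjusted p = 0.0399, limma). Of all genes 64.3% were called in this comparison, in which treatment and medium cannot be told apart. The HHT2 and HHF1 calls held whichever 1 array was left out. That of HTA1 was lost without YPD heat replicate 2 (−0.20, adjusted p = 0.0509). That of HHO1 was lost without YPD heat replicate 2 or 3, YPD control replicate 1, SC myristate replicate 1 or 3, or SC control replicate 1 or 2 (−0.25 to −0.20, adjusted p of 0.052 to 0.105). HTZ1 was called without YPD control replicate 2 (−0.31, adjusted p = 0.0239) or SC myristate replicate 1 (−0.31, adjusted p = 0.0233), and with quantile normalization (−0.28, adjusted p = 0.028). HHO1 was not called with median centring (−0.23, adjusted p = 0.057), and with array weights HTB1 (−0.15, adjusted p = 0.0337) and HTB2 (−0.27, adjusted p = 0.042) were called.

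Genes that act on histones were taken from lists drawn up with earlier results of these data known. Heat lowered most of the transcription regulators and histone chaperones, as it did the histone genes, while the SWR1 list moved both ways. ISP1 lowered most of those regulators and chaperones but only 2 of the 9 histone genes. Of 12 regulators of histone gene transcription, heat lowered 7 and raised 1, where 40.9% of all genes were called lower and 39.8% higher. ISP1 lowered 10 and raised 1, where 33.2% of all genes were called lower and 27.9% higher. The list median was −0.32 with heat and −0.37 with ISP1, against −0.00 and −0.04 over all genes. HIR2, a subunit of the HIR corepressor, fell by 1.22 ± 0.07 with heat (adjusted p = 1.95e-11, limma) and by 0.46 ± 0.07 with ISP1. SPT21, which works with Spt10 to activate histone genes, changed by −0.96 ± 0.09 with heat and −0.75 ± 0.09 with ISP1.

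Of 20 histone chaperones, importers and assembly factors, heat lowered 14 and raised 3, with a median of −0.47, and ISP1 lowered 13 and raised 0, with a median of −0.26. Over all genes the shares called lower were 40.9% with heat and 33.2% with ISP1, and the medians were −0.00 and −0.04. KAP123, the main importer of H3 and H4 into the nucleus, fell by 2.24 ± 0.07 with heat and by 0.94 ± 0.07 with ISP1. FPR4, a proline isomerase that binds H3, changed by −1.75 ± 0.11 with heat and −0.80 ± 0.11 with ISP1, and HIF1, which binds H4 with the acetyltransferase Hat1, by −1.83 ± 0.11 and −0.47 ± 0.11. NHP6B, a high mobility group protein gene, rose with heat (1.28 ± 0.09, adjusted p = 9.53e-11, limma). NHP6A, of the same list, fell with heat (−0.40, adjusted p = 1.98e-05, limma). Of the 14 genes of the SWR1 complex, heat raised 7 and lowered 4, with a median of 0.09, where 39.8% of all genes were called higher and 40.9% lower. SWR1, its ATPase, changed by 0.54 ± 0.08 with heat while HTZ1, which codes for the histone it deposits, changed by −0.65 ± 0.08. RVB1, a helicase shared with other complexes, changed by −0.90 ± 0.06.

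Enzymes that modify histones were called in both directions with heat, at shares that can be read only against the 40.9% called lower and 39.8% called higher over all genes. Heat lowered 7 and raised 2 of 13 acetyltransferase genes, lowered 2 and raised 4 of 13 deacetylase genes, and lowered 3 and raised 3 of 10 methyltransferase and demethylase genes. The list medians with heat were −0.17, 0.05 and −0.06. ISP1 lowered 6, 6 and 7 of these and raised 1 of each, where 33.2% of all genes were called lower and 27.9% higher. SAS3, an H3 acetyltransferase gene, changed by −1.27 ± 0.09 with heat and −0.42 ± 0.09 with ISP1. SIR2, the deacetylase of silenced chromatin, changed by −1.04 ± 0.07 with heat and −0.69 ± 0.07 with ISP1. DOT1, which methylates H3, changed by −0.86 ± 0.08 and −0.50 ± 0.08, and RPH1, a demethylase gene, by 0.38 ± 0.06 and 0.27 ± 0.06.

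Most other genes of S phase fell with each treatment. Of 27 genes of DNA replication and S phase, heat lowered 23 and raised 0, with a median of −1.10, where 40.9% of all genes were called lower. Myristate lowered 21 and raised 0, with a median of −0.35, where 25.7% were. ISP1 lowered 26 of the 27 and raised 0, with a median of −0.50, where 33.2% of all genes were called lower. With ISP1 in heated cells, 17 of the 27 were lower and 0 higher, where 16.3% of all genes were called lower. RNR1, the large subunit of ribonucleotide reductase, averaged 9.44 ± 0.13 in YPD heat and 12.84 ± 0.08 in YPD control (SD, n = 3 each), a change of −3.40 ± 0.08 (adjusted p = 5.5e-17, limma). The S-phase cyclin gene CLB6 changed by −2.97 ± 0.12 with heat and −0.79 ± 0.12 with ISP1, and the G1 cyclin gene CLN2 by −2.66 ± 0.13 and −0.41 ± 0.13. POL1, the DNA polymerase alpha subunit gene, changed by −2.13 ± 0.08 with heat, −0.81 ± 0.08 with ISP1 and −0.74 ± 0.08 with myristate. The difference between this list and the histone genes was not tested.

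**Figure D4:**
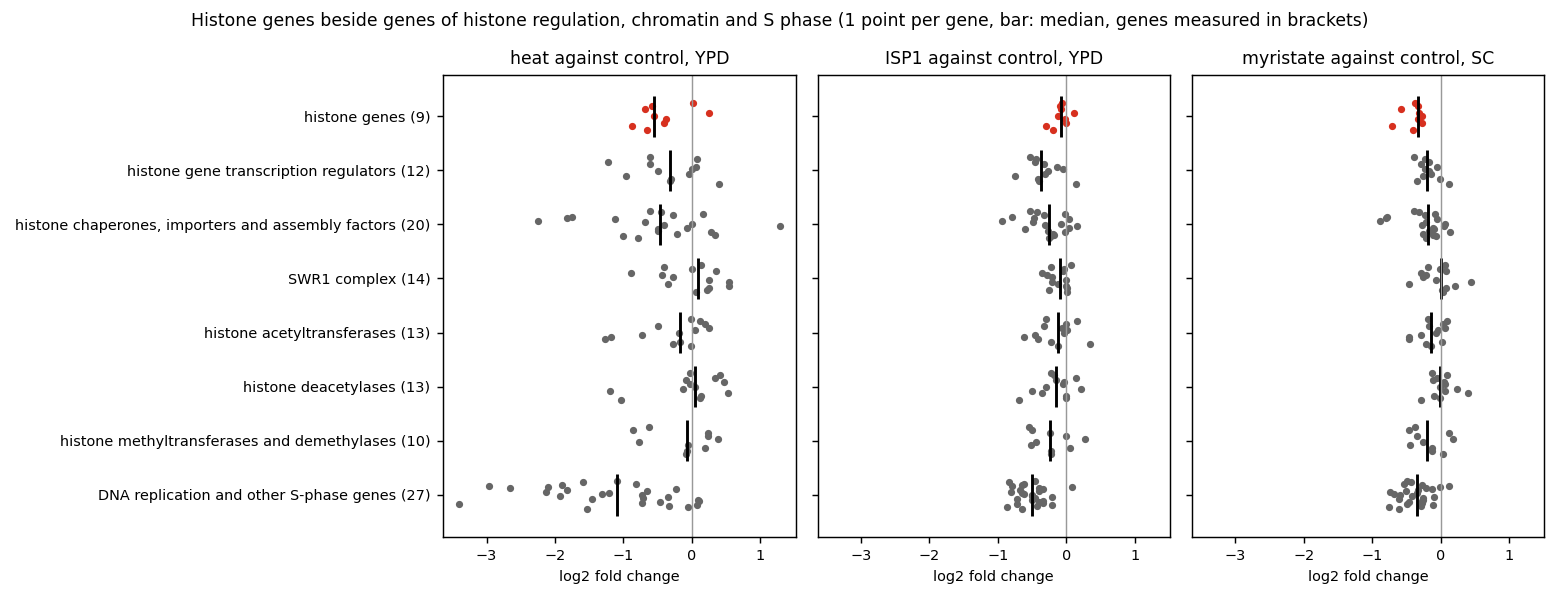
Log2 fold change of every gene (point) of the histone genes and 7 lists, with the list median (bar), for heat and ISP1 in YPD and myristate in SC, each against the control of its medium; brackets give the number of genes measured. The DNA replication and S-phase genes have medians of −1.10, −0.50 and −0.35.

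The genes whose level followed the mean of the measured core histone genes most closely over the 21 arrays were CIN8, a mitotic kinesin gene (Pearson's r = 0.93), ALE1 (0.92), SPA2 (0.91), TIF11 (0.91), NUP145 (0.91), ERG6 (0.91), PDS5 (0.90), NUP170 (0.90), NAF1 (0.90) and GAS3 (0.90). Over the 12 YPD arrays they were YLR342W-A (0.98), TIF11 (0.98), MF(ALPHA)1 (0.97), RPL34B (0.97), SPA2 (0.97), RTT107 (0.97), VMA6 (0.97), RPP2B (0.97), YNL046W (0.97) and RPS22B (0.97). SPA2 and TIF11 were in both sets. HTB2 alone, chosen after its values were seen, was followed most closely in YPD by HSL1 (0.99), ADO1 (0.98) and CDC21, the thymidylate synthase gene (0.98). HHT2 alone was followed by ISD11 (0.92) and SAE3 (0.90), neither of which is among those that followed the core mean. These values describe likeness over single arrays that fall into 7 groups, or 4 in YPD, and have no test.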

How the data were processed

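Total RNA was measured on 21 Affymetrix yeast arrays. As deposited, values are on a log2 scale, 1 per probe set and array, made by the authors with affy and RMA per the submitters' processing notes, which name no versions. RMA includes quantile normalization, which can hide a change common to the bulk of genes, and the brightest sets lie near the top of the scale (array maxima 14.94 to 15.07). No file gives depth; the number of arrays limits precision.

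Of 10928 probe sets, 5498 carried 1 S. cerevisiae gene. The set with the highest mean was kept for each of 5449 genes, named through a gene table of assembly R64, which also gave neighbours; no coordinates or sequences were used. A group-means model over 21 arrays (limma 3.58.1 in R 4.3.3, 14 residual degrees of freedom) gave every comparison, with p-values adjusted (Benjamini-Hochberg) over all genes and called under 0.05. Differences between gene copies were tested by exact permutation. Each procedure was tested on simulated data.

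Members, lists and tests were chosen with earlier results of these data known. Named genes are all members, CSE4, up to 4 genes per list with the largest change among those called with heat and with ISP1 (the text gives some of them), the 10 genes most like the core mean, and the control genes; exceptions are marked as chosen later. Groups and replicate numbers came from the titles. Deviations of same-numbered arrays correlated at over 0.1 in every pair for YPD heat + ISP1 against YPD heat (0.17 to 0.43) and against YPD ISP1 (0.13 to 0.35), YPD ISP1 against control (0.23 to 0.53) and SC myristate against control (0.32 to 0.63), and not in the other comparisons. Alternatives were fits of the compared arrays only, the replicate block, quantile normalization or median centring over yeast probe sets, an intensity trend with robust prior, array weights, averaging of the probe sets that a gene has, a filter on dim genes, each array left out in turn, and the HTA2 own set.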

Additional observations from a re-analysis of the deposited data

Results flagged for a closer look

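The HTA2 own set gave a heat by ISP1 interaction of −0.36 ± 0.13 (adjusted p = 0.039, limma): ISP1 changed it by −0.49 in heated cells and by −0.13 in unheated cells. The shared HTA2 set gave −0.04 (adjusted p = 0.74). The own set was chosen after its values were seen, and its interaction was not refitted with an array left out. Heat in YPD and myristate in SC had different effects, by a test of the difference itself, on HHT2 (0.58), HHF1 (0.39), HTA1 (−0.27) and HHO1 (−0.24), each the heat change minus the myristate change. For HHT2 these were 0.25 with heat and −0.32 with myristate, for HHF1 0.02 and −0.38, for HTA1 −0.55 and −0.28, and for HHO1 −0.58 and −0.33. Heat was applied in YPD and myristate in SC, so treatment and medium cannot be told apart. The comparison was chosen after the values were seen, and 64.3% of all genes were called in it. The HTA1 call was lost without YPD heat replicate 2 (adjusted p = 0.0509, limma). The HHO1 call was lost when any 1 of several arrays was left out, and with median centring (adjusted p = 0.057, limma). Groups held 3 arrays, too few for a test of outlying arrays. YPD heat replicate 1 was the highest heated array for every measured member except HTZ1. Without it the heat call of HHT2 was lost (adjusted p = 0.147, limma) and the interaction of HTA1 was called (adjusted p = 0.00102, limma).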

How the results depend on the processing

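None of the alternatives reversed a called change, and the 7 falls with heat were called under all of them. The core median with heat (−0.41) was −0.30 with quantile normalization, −0.53 with probe sets averaged and −0.55 with the HTA2 own set; under quantile normalization it was −0.23 for YPD heat + ISP1 against YPD ISP1 and −0.30 against YPD control. With ISP1 in YPD, 1 histone gene was called in the fit of the compared arrays only, 0 after median centring, and 0 to 1 with an array left out. For YPD heat + ISP1 against YPD heat, 1 was called in the fit of the compared arrays only, 3 with quantile normalization, median centring, probe sets averaged or the HTA2 own set, and 4 with array weights, which called 2960 genes, against 1784 in the fit of all arrays. The interaction called 1 histone gene with quantile normalization, an intensity trend with robust prior or the HTA2 own set, 2 with array weights, and 0 to 1 with an array left out. For SC control against YPD control, 5 were called with median centring or array weights and 1 to 3 with an array left out. SC myristate + ISP1 against SC myristate called 0 genes in the fit of the compared arrays only, 3 with the replicate block or quantile normalization, 2 with median centring, 43 with array weights, and 0 to 2 with an array left out. With an array left out, the core median with myristate was −0.41 to −0.28, the heat against myristate comparison called 2 to 5 histone genes, the ISP1 shift of the HTA2 own set minus HTA1 was −0.32 to −0.27, and that of HHT2 minus HHT1 was 0.082 to 0.15. The heat shift of the HTA2 own set minus HTA1 was −0.19 with probe sets averaged. The replicate block changed no other call of a histone gene; where numbers do not pair the arrays it has no meaning beyond a check. For single histone genes with an array left out, 665 values kept their side of the threshold, 30 lost a call and 7 gained one; under the other settings 859, 7 and 25. Causes were not tested.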

Other observations

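The array also carries probe sets named for genes of another species, among them 9 for histone genes of fission yeast. Of these, 8 had means of 3.95 to 4.59, below 4.84, the 95th percentile of all other-species probe sets. The ninth, hta1, averaged 6.26 over the 21 arrays, and its group means ranged from 6.10 to 6.42.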
